A study of Mus musculus with 4 samples.

Results

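The genes described are 10 members of the interleukin-1 (IL-1) and interleukin-6 (IL-6) families: the cytokines Il33, Il6, Il11 and Lif, the receptors and receptor chains Il1rl1, Il1r1, Il1r2, Il1rap and Il6st, and the receptor antagonist Il1rn. They were chosen by name, with earlier results of these data known, as every probe set annotated to exactly 1 of them. This gave 20 probe sets for 9 of the 10 genes, out of 34945 probe sets for 18193 genes. No probe set used here was annotated to Il1rl1, the receptor of IL-33, so it was not analysed here, and Il33 is set beside the decoy Il1r2 and the other receptor genes only.

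The arrays measured RNA of dermal fibroblasts in primary culture, taken from mice 1 day after birth. The cells were adam9 -/- (knockout, 2 isolations) or adam9 +/+ (wild type, 2 isolations), with 1 array for each isolation. ADAM9 is a protease anchored in the cell membrane that cuts other surface proteins. All cells were grown untreated and came from the same tissue and age, 48 h after plating. The labels give no strain, and they do not say whether an isolation holds cells of 1 animal or of several, so p-values measure the spread between these isolations only. Each value below is the deposited normalized log2 expression value of a probe set in 1 array, and levels are compared only within a probe set. Adam9 itself had values of 8.33 and 8.55 in the knockout arrays, against 11.58 and 11.70 in the wild-type arrays (log2 difference -3.20, SE 0.142, limma adjusted p = 0.0297). The sources used here do not place its probe set inside or outside the deletion.

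IL-1 family cytokines bind a receptor chain on the target cell, and the bound chain then recruits IL1RAP, an accessory chain shared by the receptors for IL-1 and IL-33. The paired chains signal through MyD88 and IRAK kinases to the transcription factor NF-kB. IL1R2 binds IL-1, but is not the receptor of IL-33; it lacks the signalling domain and so acts as a decoy, and the antagonist encoded by Il1rn occupies the IL-1 receptor without activating it. Most cytokines of the IL-6 family, among them IL-6, IL-11 and LIF, signal through gp130, the product of Il6st, which pairs with partner chains such as those encoded by Lifr and Osmr and activates JAK kinases and STAT3. Fibroblasts are known both as a source of IL-6 and LIF and, in several tissues, as a source of IL-33, which is stored in the nucleus and released when cells are damaged.

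The promoter windows of Il33 and Il6 are shown because Il33 had the largest difference among the members and Il6 is a well-known NF-kB target that stood at low values in all 4 arrays. The windows are from RefSeq (GRCm38.p6) and run from 250 bases before to 50 bases after a gene start. All 10 members had at least 1 window, 16 in all. Capitals mark matches on either strand to the NF-kB motif GGGNNTTNCC, the AP-1 motif TGANTCA, the STAT motif TTCNNNGAA or the TATA motif TATAAA. None of these matches overlapped another in the windows printed.
Il33 upstream start, chr19:29924863-29925162, plus strand: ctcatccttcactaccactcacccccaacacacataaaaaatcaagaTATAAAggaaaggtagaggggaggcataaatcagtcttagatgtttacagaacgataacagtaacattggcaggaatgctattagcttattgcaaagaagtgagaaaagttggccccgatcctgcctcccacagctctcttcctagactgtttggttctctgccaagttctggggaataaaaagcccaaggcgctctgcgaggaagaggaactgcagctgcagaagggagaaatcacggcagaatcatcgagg
Il33 downstream start, chr19:29945540-29945839, plus strand: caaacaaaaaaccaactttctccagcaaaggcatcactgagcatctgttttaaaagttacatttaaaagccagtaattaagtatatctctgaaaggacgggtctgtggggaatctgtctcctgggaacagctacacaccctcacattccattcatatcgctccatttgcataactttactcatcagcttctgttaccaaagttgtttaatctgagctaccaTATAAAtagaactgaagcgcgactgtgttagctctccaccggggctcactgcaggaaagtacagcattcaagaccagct
Il6, chr5:30012864-30013163, plus strand: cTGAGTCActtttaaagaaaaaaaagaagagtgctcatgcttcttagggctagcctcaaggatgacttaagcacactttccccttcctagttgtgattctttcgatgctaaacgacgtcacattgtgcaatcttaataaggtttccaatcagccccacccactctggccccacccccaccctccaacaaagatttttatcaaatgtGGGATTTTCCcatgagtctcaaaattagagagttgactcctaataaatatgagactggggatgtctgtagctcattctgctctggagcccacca

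The Il6 window held 1 match to the NF-kB motif, starting 44 bases before the gene start, and 1 to the AP-1 motif, starting 249 bases before it. Neither Il33 window held a match to the NF-kB, AP-1 or STAT motif. The window at the downstream Il33 start held a TATA motif 29 bases before the start, and the window at the upstream start held one 203 bases before it. Of 32851 such windows over all genes, 4.79% held the NF-kB motif, 7.81% the AP-1 motif, 8.30% the STAT motif and 13.6% the TATA motif. Among the other members, Il1r2 held a STAT match, Il11 and Lif each an AP-1 match, and Il1rn AP-1, NF-kB and TATA matches, while no window of Il1rl1, Il1r1, Il1rap or Il6st held any of the 4 motifs. A match shows only that these letters are present.

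None of the 20 member probe sets passed the limma test at an adjusted p under 0.05 (adjusted p = 0.395 to 1.00). Over all 34945 probe sets 10 passed, or 0.0286%. An unadjusted p under 0.05 was reached by 4 member probe sets, those of Il33 and Il1r1 and a pair of Il6st, against 9.65% of all probe sets. Of the 20 probe sets, 6 were higher in both knockout arrays than in both wild-type arrays, against a background of 20.1%, and 2 were lower, against 20.9%. The 6 belong to 3 genes (Il33, Il1r1 and Il6st), and the 4 of Il6st share a transcript, so they are not separate observations. Of the 20 probe sets, 3 were higher without overlap and by at least 1 log2 unit, or 2-fold, in their means, against 1.61% of all probe sets. The median difference was 0.30 over the member probe sets and 0.00 over all probe sets. By the brightest probe set of each gene, 3 of 9 members (33.3%, against 21.2% of all genes) were higher without overlap and 0 lower (against 20.5%). The members were chosen with earlier results of these data known, so none of these shares is a test of the set. With 2 arrays against 2, an exact permutation test of a single value cannot go below p = 0.333.

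**Figure D1:**
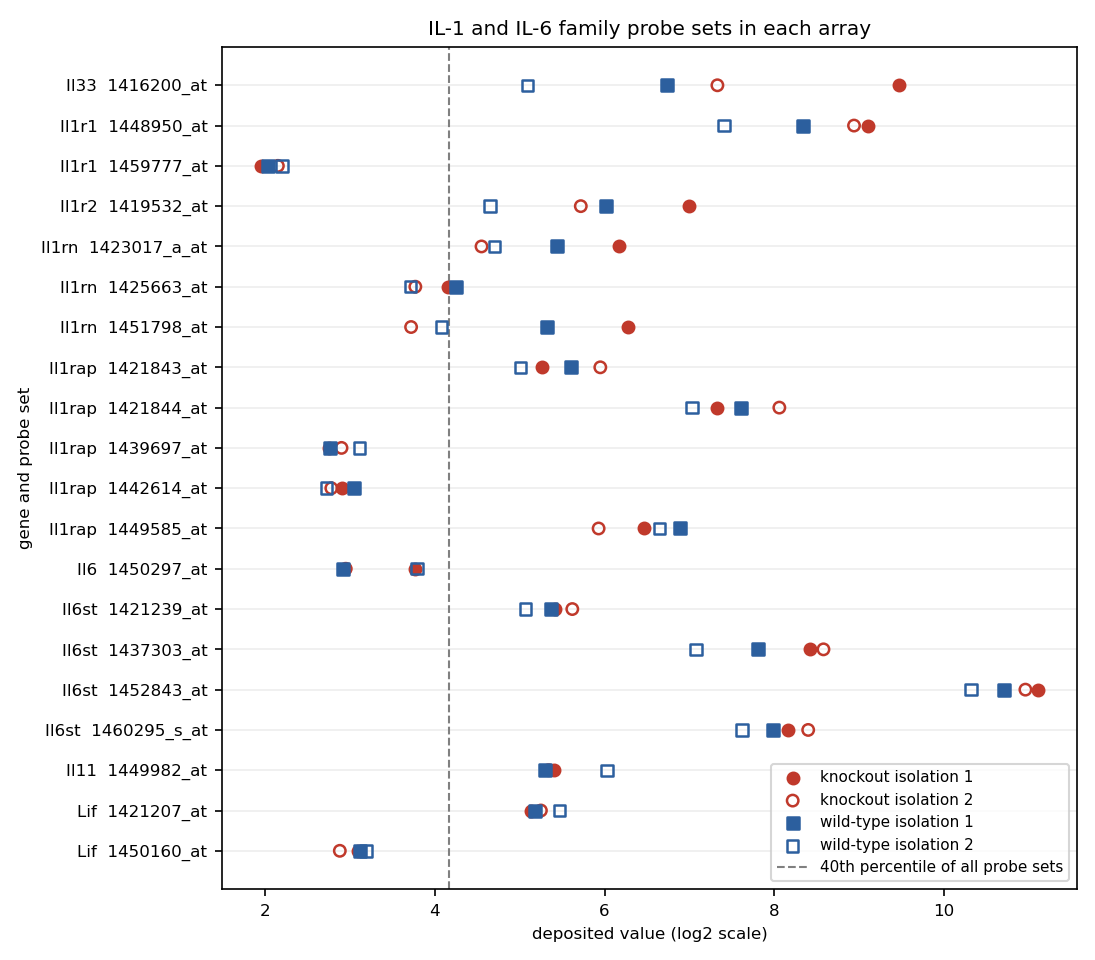
Deposited log2 value (horizontal axis) of each of the 20 probe sets (rows) in knockout isolations 1 and 2 (circles) and wild-type isolations 1 and 2 (squares); the dashed line is the 40th percentile of all probe sets, at 4.17. The Il33, Il6st and brighter Il1r1 rows have both circles to the right of both squares, with wild-type isolation 2 farthest to the left, and all 4 points of Il6 lie left of the line.

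A level of 4.17 was used to mark dim probe sets; 40% of non-control probe sets had a lower mean over the arrays. Of the member probe sets, 14 had a mean above it and 6 did not (1 each of Il1r1, Il1rn, Lif and Il6, and 2 of Il1rap). Wild-type isolation 2 was the lowest array for 9 of the 14 (64.3%), against 24.5% of the 23595 probe sets above that level. The 9 include all 4 Il6st probe sets and a pair of Il1rap from 1 source sequence, so they are not separate observations. By the brightest probe set of each gene, that array was the lowest for 5 of 9 members, against 4668 of all 18193 genes. Of the 13 fibroblast markers 8 were lowest in the same array, with a summed linear level of 115000 and 112000 in the knockout arrays and 119000 and 96700 in the wild-type arrays. The lowest relative to the other arrays, named after their values were seen, were the proteoglycan gene Lum (12.81 and 12.78 in the knockout arrays, 12.38 and 10.13 in the wild-type arrays) and the PDGF receptor gene Pdgfra (12.30 and 12.31 in knockout, 11.93 and 10.35 in wild type). Where leaving out this or another array moved a member's difference by over 1.5 times, the value without it is given with that member or among the ranges of the closing section.

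Fibroblast identity held in all arrays, with 13 of 13 markers above 4.17 in each. Macrophage markers stood high in wild-type isolation 1: all 19 were above 4.17 there, against 9 and 11 in knockout isolations 1 and 2 and 13 in wild-type isolation 2. Their summed linear level was 681 and 601 in the knockout arrays, and 12300 and 833 in the wild-type arrays. Mast cell markers, for a cell type known to carry the IL-33 receptor, were above that level for 2 and 3 of 10 genes in the knockout arrays and for 4 of 10 in each wild-type array. Their summed level was 185 and 192 in knockout and 224 and 250 in wild type. Of the 10, 2 were higher in both knockout arrays without overlap, against 21.2% of all genes, and 4 were lower, against 20.5%. The largest difference, named after its values were seen, was that of Ms4a2, a chain of the high-affinity IgE receptor, with 3.70 and 3.60 in knockout, against 5.15 and 5.07 in wild type (difference -1.46, limma adjusted p = 0.0957). Kit, Cpa3, Mcpt4, Cma1, Fcer1a and Tpsab1 were below 4.17 in all arrays. Gata2 lay at 5.85 to 6.64, Hdc at 4.72 to 4.91 and Tpsb2 at 4.08 to 4.40. Neutrophil and lymphocyte markers had medians of 3.22 to 3.97 in the 4 arrays. The genotypes also differed in sex-linked genes, of which all 4 measured passed the limma test (adjusted p = 0.00231 to 0.0297). Xist was higher, with 10.38 and 10.40 in the knockout arrays, against 4.29 and 4.32 in the wild-type arrays. The Y-linked gene Eif2s3y had 2.75 and 2.67 in knockout, against 9.19 and 9.31 in wild type, and the Y-linked genes Kdm5d and Uty differed by -5.02 and -4.69. Genotype and sex-linked expression cannot be told apart in these arrays, which holds for every difference below. Nor can fewer cells of a type be told from less RNA per cell.

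Il33 (probe set 1416200_at, Entrez 77125, chromosome 19), the nuclear alarmin cytokine of the IL-1 family, had values of 9.47 and 7.33 in the knockout arrays and of 6.74 and 5.09 in the wild-type arrays. The order was knockout isolation 1, knockout isolation 2, wild-type isolation 1 and wild-type isolation 2, with no overlap between the genotypes. The gap between the genotypes, 0.59 from the lower knockout to the higher wild-type array, was smaller than the gaps within them, 2.14 within knockout and 1.65 within wild type. The means were 8.40 ± 1.51 (SD, n = 2) in knockout and 5.91 ± 1.17 (SD, n = 2) in wild type, a 5.61-fold higher level in the knockout. The log2 difference of 2.49 (SE 0.894, 95% interval 0.14 to 4.84) did not pass (limma adjusted p = 0.499). It was 1.42 without knockout isolation 1, 3.56 without knockout isolation 2, 3.32 when wild-type isolation 1 was left out and 1.66 without the other wild-type array. The macrophage markers were high in wild-type isolation 1, which was neither the highest nor the lowest array for Il33. The part of macrophage RNA in the Il33 values was not tested. Endothelial cells and keratinocytes are also known sources of IL-33. Of 10 endothelial markers 5 (Tek, Kdr, Flt1, Eng and Cldn5) were above 4.17 in every array, while Pecam1, Cdh5, Tie1, Emcn and Vwf were below it in every array. The summed level of the 10 was 710 and 634 in knockout and 573 and 616 in wild type. Of 12 keratinocyte markers 4 and 3 were above it in knockout and 5 in each wild-type array, with a summed level of 393 and 371 in knockout and 653 and 635 in wild type. Perp and Dsp, both genes of cell junctions and picked after seeing their values, had the largest keratinocyte differences: Perp had 5.28 and 3.04 in knockout, against 8.10 and 7.90 in wild type, and Dsp 3.06 and 3.55 in knockout, against 4.84 and 6.75 in wild type. The markers Krt14, Krt15, Krt1, Krt17, Trp63, Cdh1 and Sfn were below 4.17 in all arrays, and Krt5 lay at 4.84 to 4.85. Krt10 had 7.17 and 7.02 in knockout, against 6.92 and 6.49 in wild type, and Epcam lay at 6.49 to 6.98. The part of endothelial or keratinocyte RNA in the Il33 values was not tested.

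The genes whose 4 values lay closest to those of Il33, each gene less its own mean, were Kcnj8, Rspo3 and Abcc9, at root-mean-square distances of 0.225, 0.363 and 0.422 log2 units over the 4 arrays. Kcnj8 encodes a potassium channel subunit and Abcc9 its regulatory partner, and Rspo3 encodes a secreted enhancer of Wnt signalling. Kcnj8 had 8.38 and 5.97 in the knockout arrays and 5.86 and 4.30 in the wild-type arrays. Rspo3 had 7.45 and 5.97 in knockout, and 5.45 and 4.05 in wild type. Abcc9 had 7.49 and 6.48 in knockout, and 5.49 and 3.45 in wild type. All 3 followed the same order of arrays as Il33. They were chosen for closeness to its values, so the shared order is not a separate result.

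Il1r2 (1419532_at, Entrez 16178), the decoy receptor of IL-1, had values of 7.00 and 5.72 in the knockout arrays and of 6.02 and 4.65 in the wild-type arrays. The genotypes overlapped, since knockout isolation 2 lay below wild-type isolation 1. In each genotype isolation 1 was the higher, by 1.27 in knockout and 1.37 in wild type, and these gaps exceeded the log2 difference between genotypes of 1.03 (SE 0.624, 95% interval -0.61 to 2.67, limma adjusted p = 0.650). With 1 array left out, the difference was 0.39 (knockout isolation 1), 1.67 (knockout isolation 2), 1.71 (wild-type isolation 1) or 0.34 (wild-type isolation 2). The nearest genes in pattern were Bcl11b, Cyp7b1 and Dpep1, at distances of 0.101, 0.119 and 0.126 log2 units. Bcl11b encodes a zinc finger transcription factor, Cyp7b1 an oxysterol hydroxylase and Dpep1 a dipeptidase.

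Il1r1 (Entrez 16177), the signalling receptor of IL-1, was measured by a pair of probe sets that differed. On 1448950_at it had 9.10 and 8.94 in the knockout arrays and 8.34 and 7.41 in the wild-type arrays. The knockout arrays were within 0.16 of each other and above both wild-type arrays, which were 0.93 apart. The means of 9.02 ± 0.113 (SD, n = 2) in knockout and 7.87 ± 0.660 (SD, n = 2) in wild type gave a 2.22-fold higher level (log2 difference 1.15, SE 0.331, 95% interval 0.28 to 2.02, limma adjusted p = 0.433). Without wild-type isolation 2 the difference was 0.68, and without wild-type isolation 1 it was 1.61. The second probe set, 1459777_at, lay at 1.95 to 2.20 in all 4 arrays, below the 40th percentile, with overlapping genotypes (difference -0.07, 95% interval -0.44 to 0.31).

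The receptor genes lie together. Il1r2, Il1r1, Il1rl2, Il1rl1, Il18r1 and Il18rap follow each other along chromosome 1 with no other protein-coding gene between them in RefSeq. Il1rl2, the receptor chain for IL-36 cytokines, had 9.38 and 8.95 in the knockout arrays and 8.25 and 7.42 in the wild-type arrays on probe set 1434903_s_at (log2 difference 1.33, SE 0.328, limma adjusted p = 0.382). The genotypes did not overlap, with wild-type isolation 2 again the lowest, and the difference was 0.91 without that array. An _s_at probe set can bind more than 1 transcript, and on the other Il1rl2 probe set, 1450273_at, the difference was 0.26 (4.54 and 4.65 in knockout, 4.37 and 4.31 in wild type). Beyond Il1rl1 along the chromosome, the receptor chain of IL-18 encoded by Il18r1 lay at 2.43 to 2.76 in all arrays. Its accessory chain gene Il18rap had 5.41 and 6.53 in knockout and 5.69 and 6.49 in wild type on its brighter probe set, so that isolation 2 was the higher in each genotype. The genes on the outer sides of the cluster, Map4k4 and Slc9a4, differed by -0.04 and 0.08 on their brightest probe sets.

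**Figure D2:**
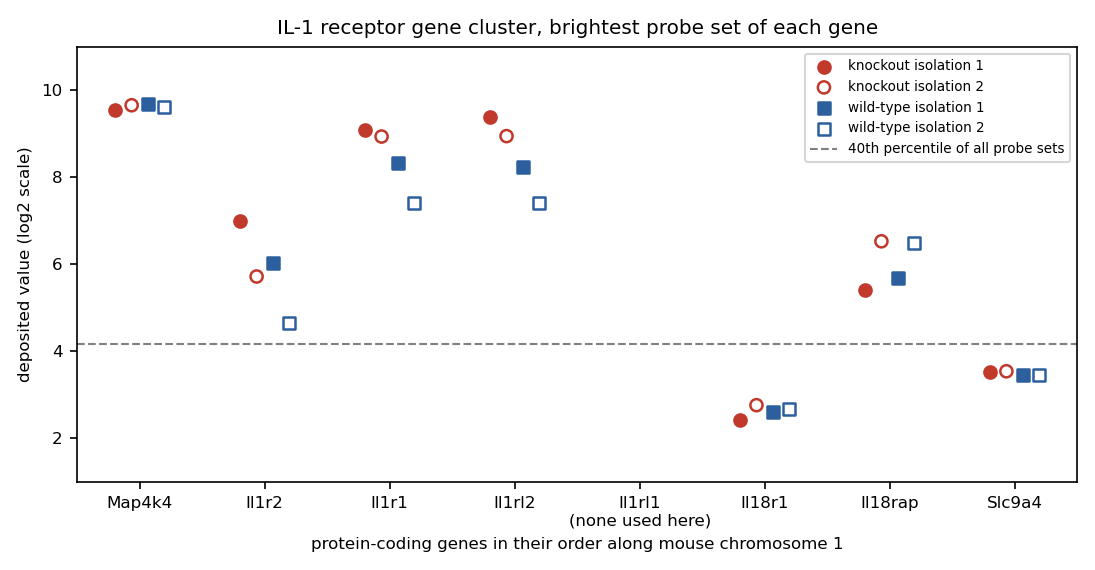
Deposited log2 value (vertical axis) of the brightest probe set of each protein-coding gene in the IL-1 receptor cluster, in gene order along chromosome 1 (horizontal axis, not to scale), in the 2 knockout (circles) and 2 wild-type (squares) arrays; the dashed line is the 40th percentile of all probe sets. Both circles lie above both squares for Il1r1 and Il1rl2, the genotypes overlap for Il1r2, and no probe set used here was annotated to Il1rl1.

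Il1rap (Entrez 16180), which encodes the accessory chain shared by the IL-1 and IL-33 receptors, had 5 probe sets that did not go one way. On the brightest, 1421844_at, it had 7.33 and 8.06 in the knockout arrays and 7.61 and 7.03 in the wild-type arrays. The genotypes overlapped, with knockout isolation 2 highest (difference 0.37, 95% interval -0.49 to 1.24, limma adjusted p = 0.751). With 1 array left out it ranged from 0.01 (knockout isolation 2) to 0.74 (knockout isolation 1), and it was 0.08 without wild-type isolation 2. Probe set 1421843_at, designed from the same source sequence, gave the same order of arrays and a difference of 0.30. On 1449585_at the values were 6.47 and 5.93 in knockout, against 6.89 and 6.65 in wild type. Here both knockout arrays were lower (difference -0.57, SE 0.226, 95% interval -1.17 to 0.02, limma adjusted p = 0.532), and knockout isolation 2, the highest array on the brightest probe set, was the lowest. The difference was -0.30 without knockout isolation 2 and -0.70 without wild-type isolation 2. Il1rap is known to produce a membrane form and soluble forms, and the sources used here do not say which of them each probe set detects. The remaining 2 probe sets lay at 2.72 to 3.11, below the 40th percentile, and differed by -0.12 and -0.05.

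Il1rn (Entrez 16181), the IL-1 receptor antagonist, had overlapping genotypes on all 3 of its probe sets. On 1423017_a_at it had 6.17 and 4.55 in the knockout arrays and 5.44 and 4.70 in the wild-type arrays, with isolation 1 the higher in each. On 1451798_at it had 6.28 and 3.72 in knockout and 5.32 and 4.08 in wild type, in the same way. The labels do not say that isolation numbers pair the arrays, so the shared order has no known meaning. The log2 differences were 0.29 (95% interval -1.27 to 1.85, limma adjusted p = 0.911) and 0.30 (95% interval -2.18 to 2.78, limma adjusted p = 0.945). The third probe set, 1425663_at, lay at 3.71 to 4.25 and differed by -0.03. Macrophages also make this antagonist, and the array with high macrophage markers, wild-type isolation 1, was below knockout isolation 1 on the 2 brighter probe sets; the part of macrophage RNA in these values was not tested. The nearest genes in pattern were Pycard, Fbxo2 and Ldb2, at distances of 0.102, 0.112 and 0.116 log2 units. Pycard encodes ASC, the adaptor of the inflammasome that activates IL-1beta, and had 8.14 and 6.76 in knockout and 7.38 and 6.71 in wild type. Fbxo2 encodes a subunit of a ubiquitin ligase, and Ldb2 a cofactor of LIM-domain transcription factors.

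The IL-6 family ligands showed no separation in 1 direction. Il6 (1450297_at, Entrez 16193) had 3.77 and 2.95 in the knockout arrays and 2.92 and 3.79 in the wild-type arrays. All 4 values were below the 40th percentile level, and knockout isolation 1 lay within 0.02 of wild-type isolation 2, and the other two arrays within 0.03 of each other (difference 0.01, 95% interval -1.08 to 1.09, limma adjusted p = 1.00). The nearest genes in pattern were Hsd17b7, an enzyme of cholesterol synthesis, Snrnp48, a spliceosome component, and Abce1, a ribosome recycling factor, at distances of 0.0124, 0.0480 and 0.0976 log2 units. Il11 (1449982_at, Entrez 16156), a gp130 cytokine, had 5.40 and 5.34 in knockout and 5.30 and 6.03 in wild type. Wild-type isolation 2 alone was high, and the difference of -0.29 (95% interval -0.99 to 0.41) became 0.07 without it. Lif (Entrez 16878), the leukaemia inhibitory factor, had 5.13 and 5.25 in knockout and 5.18 and 5.47 in wild type on 1421207_at (difference -0.13, 95% interval -0.54 to 0.28). Its dimmer probe set 1450160_at, from the same source sequence, had 3.09 and 2.88 in knockout, against 3.12 and 3.19 in wild type. That row did not overlap, but by 0.17 on average and below the 40th percentile.

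Il6st (Entrez 16195), the gene of the shared signalling chain gp130, was higher in both knockout arrays on all 4 of its probe sets. On the brightest, 1452843_at, it had 11.11 and 10.96 in the knockout arrays and 10.71 and 10.32 in the wild-type arrays. On 1437303_at it had 8.42 and 8.58 in knockout, against 7.81 and 7.08 in wild type. On 1460295_s_at it had 8.16 and 8.40 in knockout and 7.99 and 7.62 in wild type. On the dimmest, 1421239_at, it had 5.42 and 5.62 in knockout and 5.37 and 5.07 in wild type. There the lower knockout array was only 0.05 above the higher wild-type array.

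Every Il6st probe set was lowest in wild-type isolation 2. The largest difference, on 1437303_at, was 2.08-fold (means 8.50 ± 0.108 in knockout and 7.45 ± 0.520 in wild type, SD, n = 2 each; log2 difference 1.06, SE 0.272, 95% interval 0.34 to 1.77, limma adjusted p = 0.395). On 1452843_at the difference was 0.52 (SE 0.181, limma adjusted p = 0.487), on 1460295_s_at 0.48 (SE 0.185, adjusted p = 0.526) and on 1421239_at 0.30 (SE 0.165, adjusted p = 0.624). Without wild-type isolation 2 these became 0.69, 0.32, 0.29 and 0.15 in the same order, all still positive. Probe sets 1421239_at and 1460295_s_at were designed from 1 source sequence.

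**Figure D3:**
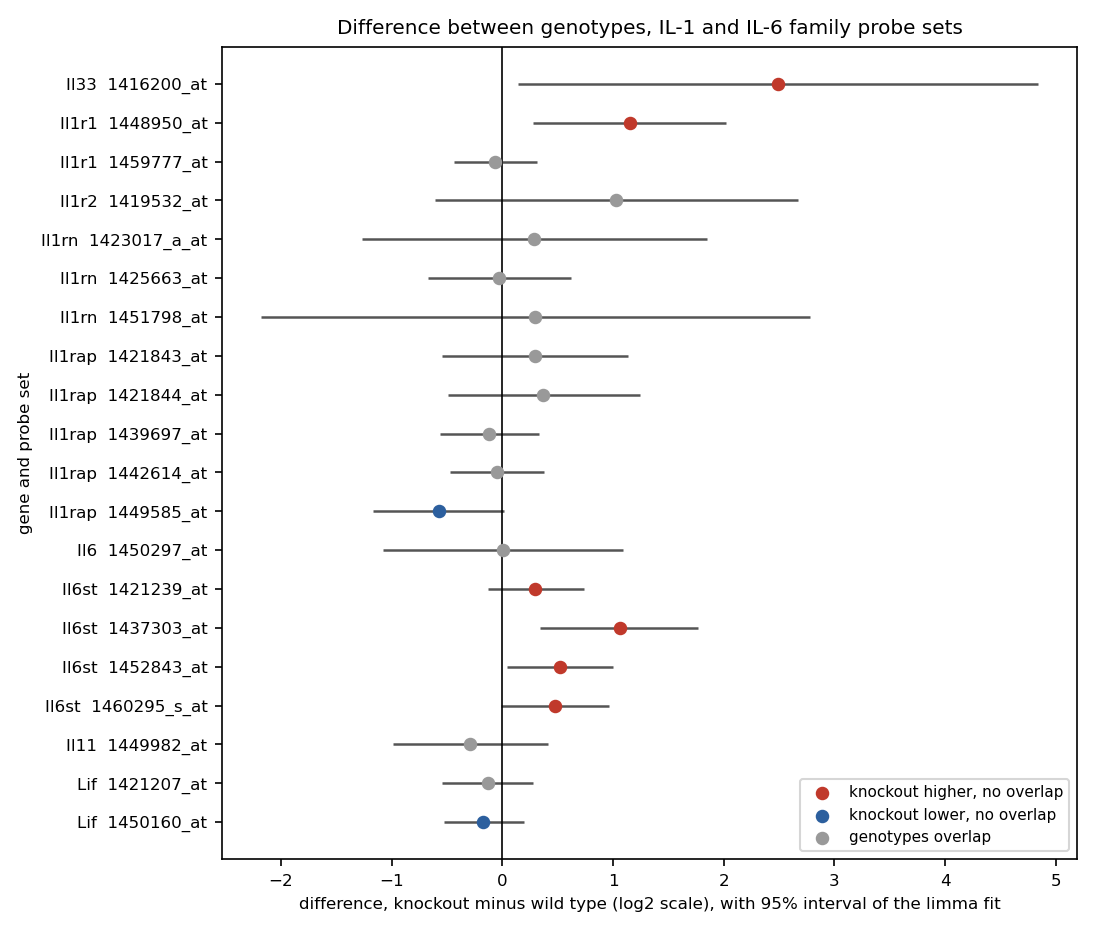
Log2 difference of knockout minus wild type (horizontal axis) for each of the 20 probe sets (rows), with the 95% interval of the limma fit as a line; colour marks whether the arrays of the genotypes overlap. The intervals of Il33, the brighter Il1r1 probe set and 2 of the 4 Il6st probe sets lie above 0 before adjustment for the number of probe sets, and that of Il33 is among the widest.

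Other genes of the IL-1 family gave no shift as a list. Of 29 listed ligands, receptors and signalling genes, 27 were measured, and 0 passed the limma test, against 0.0495% of all genes taken by their brightest probe set. An unadjusted p under 0.05 was reached by 1, against 1865 of all 18193 genes, which is the background for such counts in the lists below. This list and those below were also chosen with earlier results of these data known. Without overlap, 4 were higher (14.8%, against 21.2% of all genes) and 5 lower (18.5%, against 20.5%), with a median difference of -0.03, against 0.00 over all genes. The largest differences were that of Il1rl2 and that of Irak2, a kinase that relays the IL-1 signal. Irak2 had 8.43 and 8.31 in the knockout arrays and 8.63 and 9.21 in the wild-type arrays (difference -0.55, limma adjusted p = 0.540, -0.26 without wild-type isolation 2). The agonists Il1a and Il1b lay at 3.32 to 3.57 and at 3.99 to 4.22. Il1a and Il1b are named after their values were seen.

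Downstream of the IL-1 receptor, the lists lay near the background of all genes. Of 13 measured NF-kB subunits and inhibitors, 3 were higher (23.1%, against 21.2% of all genes) and 3 lower (23.1%, against 20.5%) without overlap, with a median of 0.05 and 0 past the limma test (1 at an unadjusted p under 0.05). Nfkbiz, an atypical inhibitor of kB that is itself induced by IL-1, had 7.88 and 8.37 in the knockout arrays and 8.88 and 9.16 in the wild-type arrays. Both knockout arrays were lower on each of its 3 probe sets (difference -0.90 on the brightest, SE 0.218, limma adjusted p = 0.369). Bcl3, another atypical inhibitor, had 5.99 and 5.70 in knockout, against 5.50 and 4.90 in wild type (difference 0.65, limma adjusted p = 0.521, 0.35 without wild-type isolation 2).

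Among 20 genes that IL-1 is known to induce in fibroblasts, 4 were higher (20.0%, against 21.2% of all genes) and 4 lower (20.0%, against 20.5%) without overlap, with a median of 0.04 and 0 past the limma test (3 at an unadjusted p under 0.05). The 2 with the largest differences went opposite ways. Ptgs2, the inducible cyclooxygenase, had 7.99 and 7.77 in knockout, against 9.27 and 11.17 in wild type. Both knockout arrays were lower, and wild-type isolation 2 was the highest (difference -2.34, SE 0.639, limma adjusted p = 0.415, -1.39 without that array). Tnfaip6, which encodes the hyaluronan-binding protein TSG-6, had 8.93 and 8.56 in knockout, against 7.79 and 6.39 in wild type, here with wild-type isolation 2 the lowest (difference 1.65, SE 0.487, adjusted p = 0.436, 0.96 without that array). Immediate-early genes, which respond to handling of cells, had a median of 0.07 over 12 genes, with 2 higher (16.7%, against 21.2%) and 1 lower (8.33%, against 20.5%) without overlap and 0 past the limma test (1 at an unadjusted p under 0.05). The zinc finger genes Egr1 and Egr2 had the largest mean differences, both with overlapping genotypes. Egr1 had 10.13 and 6.74 in the knockout arrays and 9.62 and 9.26 in the wild-type arrays, and Egr2 had 5.82 and 4.52 in knockout and 4.91 and 4.24 in wild type. The Egr1 difference, negative over the 4 arrays, was 0.69 without knockout isolation 2, and the Egr2 difference of 0.60 became -0.05 without knockout isolation 1.

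Other IL-6 family genes were more often separated on the higher side, without any passing the test. Of 24 listed, 19 were measured, of which 8 (42.1%, against 21.2% of all genes) were higher and 3 (15.8%, against 20.5%) lower in both knockout arrays. The 8 include Jak1 and Osm, named after their values were seen, with differences of only 0.04 and 0.15. The median difference was 0.11, against 0.00 over all genes. Of the 19, 0 passed the limma test, and 5 had an unadjusted p under 0.05, against 1865 of all 18193 genes. The median was 0.25 when wild-type isolation 1 was left out and 0.07 without wild-type isolation 2, which was the lowest array for 9 of the 19 genes. The largest differences were those of Socs3 and Il31ra. Socs3, a feedback inhibitor of gp130 signalling that STAT3 induces, had 7.09 and 7.70 in the knockout arrays and 6.30 and 5.48 in the wild-type arrays on its brightest probe set, 1455899_x_at. The difference was 1.50 (SE 0.354, limma adjusted p = 0.365), and it was 0.64 and 1.25 on the other 2 probe sets, again without overlap. Without wild-type isolation 2 the difference was 1.10 on the brightest probe set and 0.70 on the one that gave 1.25. Il31ra, a receptor chain for IL-31 that pairs with OSMR, had 6.24 and 6.55 in knockout, against 5.47 and 4.84 in wild type (difference 1.24, SE 0.260, limma adjusted p = 0.326).

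The partner chains of gp130 were named after their values were seen. Osmr, the receptor chain for oncostatin M, had 10.41 and 10.31 in knockout, against 9.80 and 9.43 in wild type (difference 0.75, SE 0.172, limma adjusted p = 0.359). A second Osmr probe set differed by 0.86, and the third, at 2.80 to 3.02, by 0.06. Lifr, the LIF receptor chain, had 7.72 and 7.52 in knockout, against 7.20 and 6.55 in wild type (difference 0.75, SE 0.253, adjusted p = 0.480), while its other 2 probe sets differed by 0.42 and -0.04. Jak2, a kinase bound to gp130, had 8.69 and 8.57 in knockout and 8.18 and 8.16 in wild type (difference 0.46, SE 0.123, adjusted p = 0.402). Il6ra, the chain that binds IL-6 itself, differed by 0.17 with overlapping genotypes, and Stat3 and Jak1 by 0.10 and 0.04. Without wild-type isolation 2 the differences of Osmr, Lifr and Il31ra were 0.56, 0.42 and 0.92.

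The 14 STAT3 target genes share Socs3 and Osmr with the list above and Bcl3 with the NF-kB list. Of the 14, 8 (57.1%, against 21.2% of all genes) were higher and 1 (7.14%, against 20.5%) lower without overlap. The median was 0.17, and 0 passed the limma test (3 at an unadjusted p under 0.05, against 1865 of all 18193 genes). The largest differences were those of Socs3 and Cebpd. Cebpd, a transcription factor of the acute-phase response, had 9.01 and 9.28 in the knockout arrays and 8.09 and 8.24 in the wild-type arrays. On this, its brightest probe set, each genotype's arrays lay within 0.27 of each other, less than the difference of 0.98 (SE 0.154, limma adjusted p = 0.220). On 1456605_at Cebpd had 5.54 and 5.50 in knockout and 4.75 and 5.10 in wild type (difference 0.59, SE 0.165, limma adjusted p = 0.421). Without each array in turn the list's median ranged from 0.19 to 0.38.

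**Figure D4:**
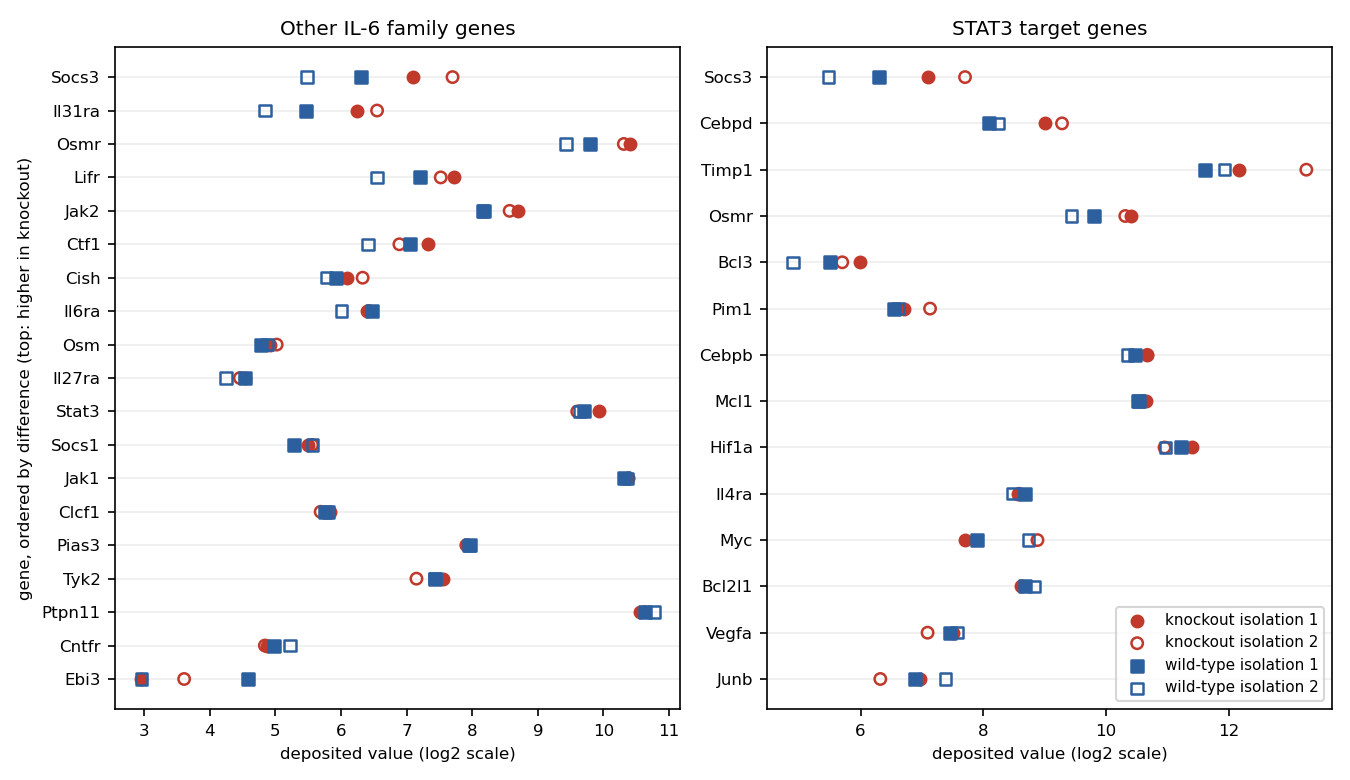
Deposited log2 value (horizontal axis) of other IL-6 family genes (left) and STAT3 target genes (right) by their brightest probe set, ordered by difference with knockout-higher genes at the top, in the knockout (circles) and wild-type (squares) arrays. At the top of both panels the circles lie right of the squares, as for Socs3, Il31ra, Osmr and Cebpd, while Stat3 and Jak1 show little separation.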

How the data were processed

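The authors deposited 1 log2-scale value per probe set and array, made with Affymetrix Expression Console per the submitters' processing notes. The sources used here give no version, algorithm or log base. The base was taken as 2 because the values ran from 1.70 to 14.37. No scanner intensities, detection calls or genome build were used. RNA was biotin-labelled with a kit for 3' expression arrays, per the labels' protocols.

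Of 45101 probe sets, the 34945 non-control ones naming 1 gene in the platform annotation were kept, and symbols were taken from RefSeq (GRCm38.p6) by Entrez identifier for 34741. Knockout was compared with wild type in limma 3.58.1 (R 4.3.3; lmFit and eBayes, no filter, no block), with Benjamini-Hochberg adjustment over all 34945. The fit had 2 residual and 2.65 prior degrees of freedom. It was tested on simulated data.

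The members, lists and tests were chosen with earlier results of these data known. Genes named are all members, then the 2 with the largest difference in each pathway list (or all that pass), by the brightest probe set, and the 3 nearest patterns to Il33, Il1r2, Il6 and Il1rn. Adam9 and the neighbouring genes of the IL-1 receptor cluster are also named. Other genes, among them the single cell type markers, were named after their values were seen. Of 196 list genes, 183 were measured. Alternatives were other filters, normalizations and variance models, the isolation block, means over probe sets and leaving out each array. Promoter windows come from RefSeq.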

Additional observations from a re-analysis of the deposited data

How the results depend on the processing

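No member probe set passed the test under any alternative tried (smallest adjusted p = 0.278), so the count of called members was 0 throughout. Over all probe sets 10 passed as reported. With the isolation number as a replicate block the count was 0 (member adjusted p of at least 0.278), and it was also 0 with any 1 array left out, where the lone array of a genotype is assumed to vary like the others. The labels do not say that isolation numbers pair the arrays, and the correlation between genotypes of the difference between isolations was 0.0645 over probe sets. Of 261 member values under alternatives, 241 kept their direction and 20, of 11 probe sets, did not. With 1 array left out, the differences ranged from -0.17 to 0.03 for Il1r1 1459777_at, -0.52 to 1.09, -0.30 to 0.25 and -0.98 to 1.58 for Il1rn 1423017_a_at, 1425663_at and 1451798_at, -0.04 to 0.64, -0.29 to 0.056 and -0.21 to 0.12 for Il1rap 1421843_at, 1439697_at and 1442614_at, -0.43 to 0.44 for Il6, -0.66 to 0.073 for Il11 and -0.27 to 0.012 for Lif 1421207_at. They ranged from -0.28 to -0.06 for Lif 1450160_at, from 0.15 to 0.45 for Il6st 1421239_at and from 0.29 to 0.66 for Il6st 1460295_s_at, with no change of direction. Taking the mean over a gene's probe sets gave 0.54 for Il1r1, 0.19 for Il1rn and -0.012 for Il1rap, where single probe sets had the other sign. The number of member probe sets higher without overlap, 6, was 11 without wild-type isolation 1, where only 1 wild-type array is left to exceed, an alternative added after the data were seen. Without a detection call, values under the 40th percentile have no known background, and 2 arrays per genotype limit all comparisons.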
